A study of Rattus norvegicus with 8 samples.

Results

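Nuclei of the rat nodose ganglion that carried transcripts of both Cysltr2 and Gdpd4 numbered 1415 of 36741, or 3.85% (exact 95% binomial interval 3.66 to 4.05, counting error only). A nucleus was chosen when each of these genes had at least 1 raw UMI (unique molecular identifier, a tag that marks 1 captured transcript) in it. Because the counts of Cysltr2 and Gdpd4 made the choice, their levels are given as a description and nothing is tested on them. Cysltr2 was detected in 3494 nuclei and Gdpd4 in 3885, so that the chosen nuclei were 40.5% of the former and 36.4% of the latter.

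The nuclei came from Long Evans rats aged 8 weeks that were experimentally naive, so every group was untreated and no group carried an engineered allele. Ganglia of 1 side from 6 rats made up a pool, with 3 pools for either side of either sex and 18 rats per sex. Pools are written by sex (M or F), side (L or R) and replicate, so that FR3 was female-labelled, right, replicate 3. Both sides of a sex would draw on the same 18 rats, so the left and right pools are not independent animals, and a pool averages over its rats. The comparisons the study is built for are left against right and male against female. Each pool gave 68 to 180 chosen nuclei: ML1 152, ML2 78, ML3 114, MR1 94, MR2 166, MR3 89, FL1 180, FL2 68, FL3 110, FR1 99, FR2 108 and FR3 157. Their UMIs summed to between 424171 and 1798890 per pool.

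The nodose ganglion holds the cell bodies of vagal sensory neurons, which carry mechanical, chemical and hormonal signals from the heart, lungs and gut to the brainstem. Cysltr2 encodes a G protein-coupled receptor for cysteinyl leukotrienes, lipid mediators that mast cells and eosinophils release and that act through Gq and intracellular calcium. Gdpd4 encodes a member of the glycerophosphodiester phosphodiesterase family. Ret is the signalling receptor for ligands of the GDNF family, which bind together with a Gfra co-receptor, and Ptafr is the receptor for platelet-activating factor, another lipid mediator of inflammation.

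The chosen nuclei were not 1 cell population. When all nuclei were clustered with Cysltr2 and Gdpd4 left out, 543 of the 1415 (38.4%) fell in a cluster of 980 nuclei led by Ret, Col6a5, Ptafr, Hunk and Dmkn, here called the Ret cluster. A further 538 (38.0%) fell in a cluster of 3847 nuclei led by Itgae, Gpr65, Ntsr1 and Chrm2, the Itgae cluster, and 108 (7.63%) in a cluster of 691 nuclei with Cartpt among its leading genes. The other neuron-like clusters held 170 and the clusters set aside for glial, vascular or muscle genes 56. A name built on Ret and Ptafr therefore described the Ret cluster, which held a minority of the chosen nuclei, and the text keeps to the name Cysltr2+ Gdpd4+ nuclei.

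Seen from the clusters, 55.4% of the Ret cluster carried both transcripts (interval 52.2 to 58.6), against 15.6% of the Cartpt cluster, 14.0% of the Itgae cluster and 0.756% of the other neuron-like clusters. Within the last group a cluster led by Htr4 reached 6.50%. In the 5 set-aside clusters of glial, vascular and muscle genes the share was 0.642% (interval 0.485 to 0.832) at a median of 1799 UMIs. The share over the remaining neuron-like clusters, at a median of 2783 UMIs, lay within that interval, although the Htr4 cluster lay above it. The set-aside nuclei are no floor free of neuronal RNA. Neuron genes summed to a median of 7250 CPM over the pools there and 9436 CPM in the other neuron-like nuclei. Of the 56 chosen nuclei set aside, 39 lay in a single cluster with a median of 3536 UMIs. The 170 chosen nuclei of these remaining clusters had Ret at 608 ± 327 CPM against 233 ± 45.1 CPM in the others of those clusters, and whether they carry stray transcripts was not tested. The nuclei differed in depth, since the chosen ones had a median of 6648 UMIs and the other neuron-like ones 2910. After thinning to 1500 UMIs per nucleus, both transcripts were found in 17.4% of the Ret cluster, 5.08% of the Itgae cluster, 2.62% of the Cartpt cluster, 0.138% of the other neuron-like clusters and 0.209% of the set-aside clusters. The order of the 3 leading clusters thus changed between Itgae and Cartpt once depth was equal, while the Ret cluster stood first both ways.

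**Figure D1:**
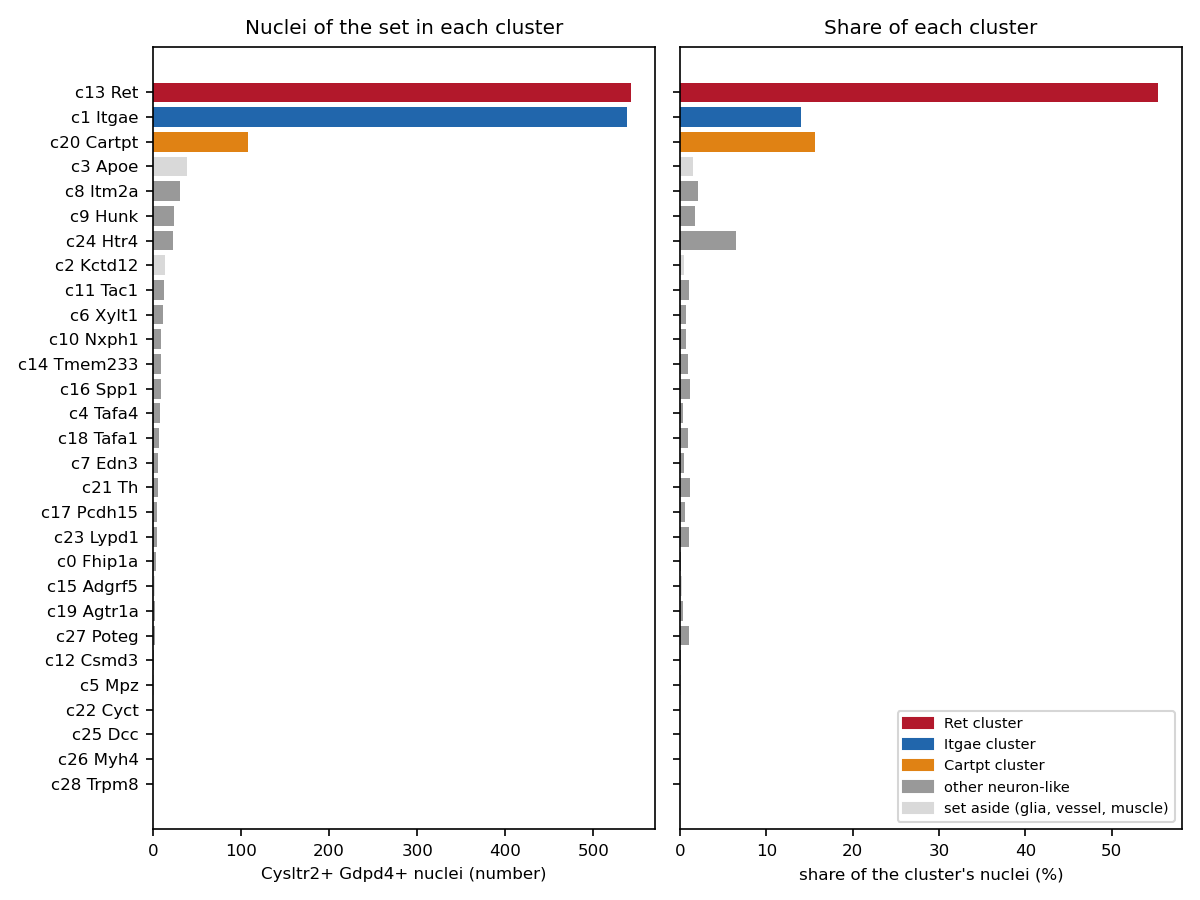
Where the Cysltr2+ Gdpd4+ nuclei lay among the clusters. The left panel gives their number in each cluster and the right panel the percent of the cluster's nuclei that carried both transcripts. The Ret and Itgae clusters held 543 and 538 of them, but 55.4% of the former and 14.0% of the latter.

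At the edge of the rule, 263 nuclei had exactly 1 UMI of each gene. Of these 13.3% lay in the Ret cluster, with summed counts giving Ret at 494 CPM (counts per 1e6, a gene's UMIs scaled to the total UMIs of the same nuclei) and Ptafr at 34.7. Just outside, the 1509 nuclei with 1 Cysltr2 UMI and no Gdpd4 UMI had 5.37% in the Ret cluster and Ret at 347 CPM. The 1568 nuclei with 1 Gdpd4 UMI and no Cysltr2 UMI had 2.42% there and Ret at 329 CPM. The 570 nuclei with at least 2 Cysltr2 UMIs and no Gdpd4 UMI, also outside the rule, had 29.1% there and Ret at 709 CPM, both above the nuclei with 1 UMI of each. The 902 with at least 2 Gdpd4 UMIs and no Cysltr2 UMI had 6.32% there and Ret at 516 CPM. Nuclei with at least 5 UMIs of each gene, 138 in all, had 71.0% in the Ret cluster and Ret at 1373 CPM, at a median depth of 12572 UMIs. The label Ret was thus a matter of degree. Ret and depth rose together from nuclei with 1 UMI of each gene, at a median of 4560 UMIs, to those with at least 5. No group here held depth fixed, so the parts of depth and of the rule genes' counts were not separated.

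Some pools stood apart. Over the Y-linked genes Kdm5d and Eif2s3y the chosen nuclei of pool ML1 summed to 1.44 CPM against 84.5 to 93.6 in its fellow male-labelled pools, and those of pool FL1 to 96.2 CPM against 0 to 4.65 in its fellow female-labelled pools. The pools labelled ML1 and FL1 thus went against their sex labels. The share of the chosen nuclei, its part in the Cartpt cluster and the gene counts by sex are also given with both left out or exchanged. Skeletal-muscle genes summed to 1764 CPM in the chosen nuclei of FR2 and to 125 to 455 in the other right pools. The 5 mast cell genes listed summed to 6.37 to 25 CPM over the pools, and the defining Cpa3 and Tpsab1 were at 0, where 3 counts would be 0.261 CPM. Satellite glia genes summed to 168 to 489.9 CPM over the pools in the chosen nuclei, against a median of 292 in the other neuron-like and 2103 in the set-aside nuclei. Of the chosen nuclei 342 (24.2%) were among the 5% of nuclei with the most UMIs in their pool, including 73 of the 108 in the Cartpt cluster, and no doublet caller was run on them. Across the 8 sublibraries the chosen share was 3.45 to 4.24%, and 1865 barcodes occurred in more than 1 sublibrary, with 161 of the chosen nuclei among their nuclei.

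Levels below are CPM over the summed UMIs of a pool, as mean ± SD over the 12 pools, for the chosen nuclei and for the 26652 other neuron-like nuclei, and log2 ratios are of mean CPM plus 5. CPM carry no gene length, so levels of different genes are not compared. The rule genes themselves stood at 333 ± 29.7 CPM for Cysltr2 against 26.3, and at 502 ± 60.0 CPM for Gdpd4 against 43.4. Ret ran from 877 over a median of 927 to 1085 CPM in the chosen nuclei and from 237 over 288 to 377 CPM in the others, a log2 ratio of 1.69. Ptafr ran from 48.9 over 59.9 to 78.9 CPM against 11.2 over 15.3 to 19.1 CPM, a log2 ratio of 1.74. For both genes the lowest pool of the chosen nuclei lay above the highest pool of the others. These contrasts carry no test, because the nuclei were picked by their counts and were known from earlier results to share these markers. Among the 7056 genes with at least 20 CPM in either class, 60 (0.850%) were at least 2-fold higher and 241 (3.42%) at least 2-fold lower in the chosen nuclei, and 12.9% were higher and 16.3% lower in all 12 pools.

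Among lipid mediator receptors Cysltr2 was present in every chosen nucleus by the rule, and Ptafr in a minority. A Ptafr UMI was found in 33.3% of the chosen nuclei and 4.92% of the other neuron-like ones, at medians of 6648 and 2910 UMIs. It was found in 47.7% of the chosen nuclei of the Ret cluster and 20.1% of those of the Itgae cluster. Of 23 lipid mediator receptor genes 20 were in the gene list and 5 besides Cysltr2 passed the filter on level. Their median log2 ratio was 0.45 where all genes had -0.03. Ptger3, a prostaglandin E2 receptor, stood at 78.4 against 55.9 CPM, and Ptgir, the prostacyclin receptor, at 28.6 against 16.7 CPM. Ptafr and Ptgir passed the filter only through their level in the chosen nuclei, so the filter itself can raise the list's median. S1pr3, a sphingosine-1-phosphate receptor and a leading gene of another neuron cluster, was lower, at 42.2 against 93.2 CPM. Of 19 enzymes of leukotriene and platelet-activating factor metabolism 5 passed the filter, with a median log2 ratio of 0.01. That list mixes enzymes that make these lipids with ones that break them down, so its median does not describe ligand synthesis. Alox5, which starts leukotriene synthesis, was at 0.666 CPM, its partner Alox5ap at 1.87 CPM, and Ltc4s, which makes the cysteinyl form, was at 0. Lta4h, of the leukotriene B4 branch, was at 23.4 against 23.2 CPM.

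Receptors for other inflammatory signals were uneven. F2r, the thrombin receptor PAR1, ran from 544 over a median of 645 to 715 CPM against 192 over 250.0 to 314 CPM, a log2 ratio of 1.31. Its groups of pools did not overlap, and it was the 1 member of its list at least 2-fold higher among 5 that passed the filter. Gpr65, a receptor that senses protons, ran from 94.4 over 106 to 151 CPM against 26.4 over 31.3 to 40.9 CPM (log2 ratio 1.66). Il1r1, the interleukin-1 receptor, stood at 27.2 against 21.8 CPM. Il31ra and Osmr, which form the receptor for the itch cytokine interleukin-31, were at 1.58 and 1.79 CPM, and the itch genes Nppb and Mrgprx1 and the bradykinin receptor Bdkrb1 were at 0 in both classes.

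Downstream of such receptors, 15 of 19 genes of Gq and calcium signalling passed the filter, with a median log2 ratio of 0.01 where all genes had -0.03. Of these 5 (33.3%) were higher and 4 (26.7%) lower in all 12 pools, against 12.9% and 16.3% of all genes. The list thus went both ways, and the genes named here are only a part of it. The Gq subunit Gnaq stood at 929.9 against 632 CPM. The phospholipases that Gq drives stood at 555 against 282 CPM for Plcb3 and 969 against 571 CPM for Plcb1. Prkcd, a diacylglycerol-activated kinase, stood at 205 against 119 CPM, whereas its relative Prkcb was lower, at 60.6 against 219 CPM.

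Trophic receptors stood apart in both directions. Beside Ret, Ngfr, the low-affinity neurotrophin receptor p75, stood at 2005 against 929 CPM (log2 ratio 1.11). Gfra2, the co-receptor through which Ret binds neurturin, stood at 122 against 67.8 CPM. Ntrk3, the receptor for neurotrophin-3, was lower at 26.7 against 114 CPM. Ntrk2, the receptor for BDNF, differed little, at 1079 against 1064 CPM. Of the glycerophosphodiesterase family besides Gdpd4 5 genes passed the filter and none differed 2-fold, the nearest being Gdpd3 at 138 against 90.8 CPM.

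**Figure D2:**
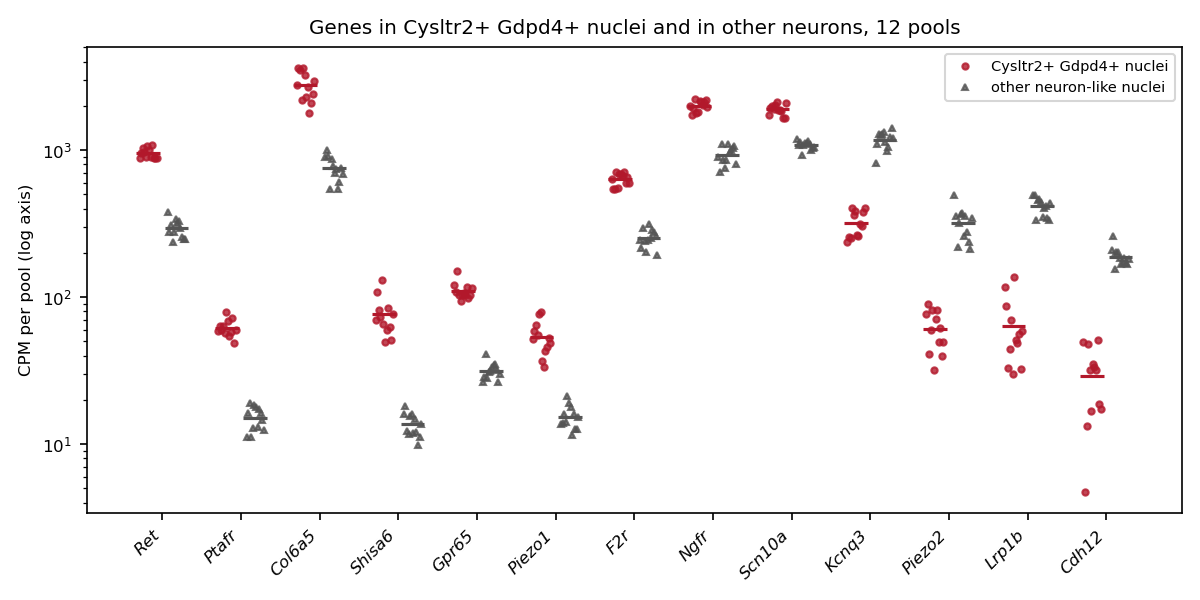
CPM of 13 genes in each pool, on a logarithmic axis, in the Cysltr2+ Gdpd4+ nuclei and in the other neuron-like nuclei. Ret and Ptafr were higher in every pool (877 to 1085 against 237 to 377 CPM for Ret) and Piezo2 and Kcnq3 lower.

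Among ion channels more were low than high in these nuclei. Piezo1, a mechanically gated channel best known from blood vessels, ran from 33.2 over 52.0 to 78.9 CPM against 11.6 over 14.8 to 21.1 CPM (log2 ratio 1.53), while its relative Piezo2, the channel of touch and lung-stretch afferents, was lower at 61.1 against 318 CPM (-2.29). Asic2, an acid-sensing channel subunit, stood at 944 against 2833 CPM. Of 18 sensory transduction channels that passed the filter 4 were higher and 8 lower in all 12 pools, where 12.9% and 16.3% of all genes were. Trpm3, a heat-gated channel, at 3871 against 2327 CPM and Htr3b, a serotonin-gated channel subunit, at 342 against 208 CPM were on the higher side. Among 19 action potential channels 3 were higher and 8 lower in all pools. Scn10a, the sodium channel of nociceptors, stood at 1895 against 1081 CPM, and Scn1a, the one typical of fast myelinated neurons, at 26.8 against 151 CPM. Kcnq3, a subunit of the potassium channel that carries the M-current, ran from 237 over 309 to 405 CPM against 817 over 1221 to 1410 CPM (-1.87). This low level was shared by nuclei without both transcripts in the 2 main clusters. In the Itgae cluster they had 255 ± 47.4 CPM and the chosen ones 269 ± 100.5 CPM, and in the Ret cluster 315 ± 101 and 189 ± 36.4 CPM. In the Cartpt cluster the values were 866 ± 212 and 359 ± 143 CPM.

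Nodose marks were mixed and those of peptide neurons low. Neuron genes summed to 10721 to 12697 CPM over the pools, above the median of 9436 in the other neuron-like nuclei. The ATP receptor P2rx2 stood at 112 against 94.2 CPM, but Eya1 was lower at 135 against 451 CPM and the summed nodose list had a median of 438 against 705 CPM. Of the jugular ganglion genes, Prdm12 stood at 3.37 against 10.9 CPM, and the neuropeptide genes Calca and Tac1 were at 5.05 against 23.2 and 4.97 against 30 CPM. Of the gut hormone and feeding receptors 7 passed the filter, 3 at least 2-fold lower and 1 at least 2-fold higher. The lower ones were Cckar for cholecystokinin at 5.25 against 32.3 CPM, Glp1r for GLP-1 at 7.75 against 32.8 CPM and Crhr2 for urocortins at 17.4 against 80.4 CPM. The higher one was Gpr65, which that list holds as a marker of gut afferents and whose values stand above. Markers of other vagal neuron types had a median log2 ratio of -1.15 over 19 genes, the lowest of the 13 lists save the 4 jugular genes at -1.33.

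By size alone, the highest ratios after the rule genes were those of Shisa6, an auxiliary subunit of AMPA glutamate receptors (76.3 against 13.6 CPM, log2 ratio 2.13), and Col6a5, a collagen VI chain (2757 ± 622 against 754 CPM, 1.86). Other named genes among the leading 20 were Vstm5 (1.64), Dmkn, Fam3d and Mfap5 (each 1.60), Fxyd2, a regulator of the sodium pump (1.56), Mfge8 (1.53), Cyp26b1, which degrades retinoic acid (1.5), Cavin2 (1.48), Lrguk (1.46) and Ndnf (1.43). Another 3 have no symbol in the sources used here: ENSRNOG00000047605 (1.77), AABR07017241.1 (1.5) and ENSRNOG00000065259 (1.45). The 10 lowest included the lipoprotein receptor relative Lrp1b at 63.7 against 416 CPM (-2.62), the cadherins Cdh12 (-2.50) and Cdh10 (-2.46), and the secreted factors Tafa1 (-2.60) and Tafa2 (-2.38). The others were Brinp3 (-2.55), the calcium pump Atp2b2 (-2.46), the transcription factor St18 (-2.38), Xylt1 (-2.33) and Sema3d (-2.32). St18, Xylt1, Brinp3, Lrp1b, Tafa1 and Tafa2 were each among the leading genes of other neuron clusters.

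**Figure D3:**
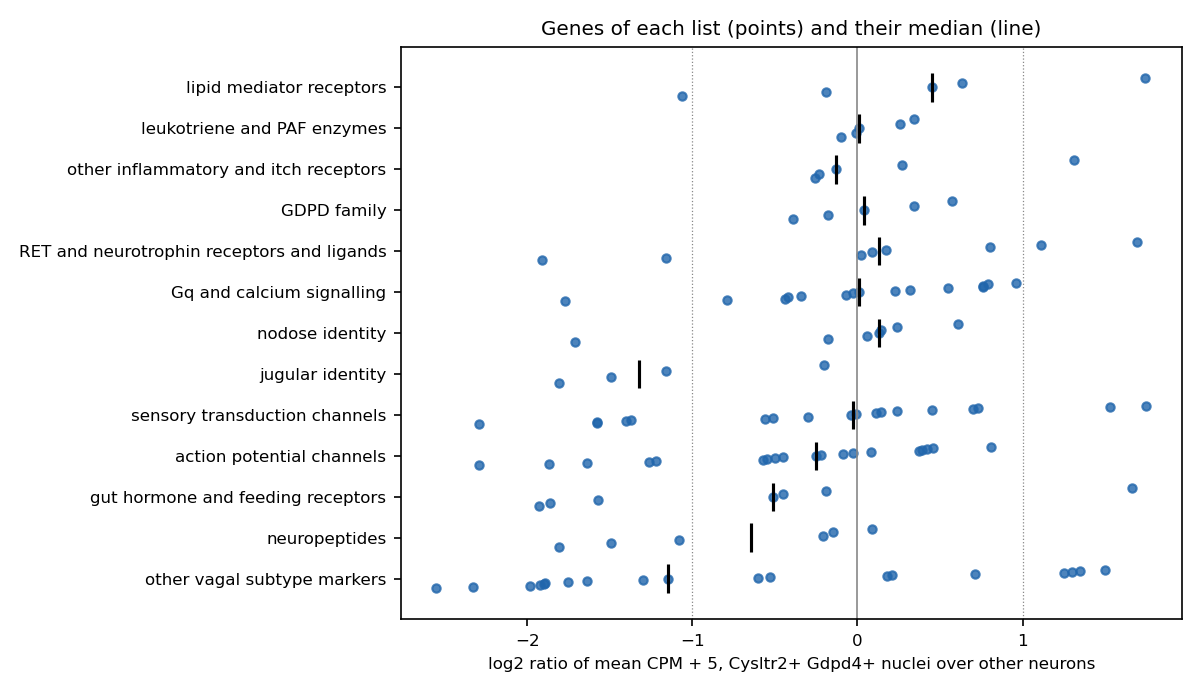
Log2 ratio of mean CPM plus 5, Cysltr2+ Gdpd4+ nuclei over other neuron-like nuclei, for each gene of 13 lists that passed the filter on level, with the list's median as a line. The lipid mediator receptors had a median of 0.45 and the listed markers of other vagal neuron types -1.15, though 4 of those 19 were at least 2-fold higher. A gene could pass the filter through its level in either class alone.

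The 2 main groups of chosen nuclei differed from each other in what their clusters are made of, which is a description since the clusters rest on these genes. Over the pools Ret stood at 1443 ± 94.2 CPM in the chosen nuclei of the Ret cluster and 621 ± 120.0 CPM in those of the Itgae cluster, and Ptafr at 86.0 against 40 CPM. On the side of the Ret cluster Nos1, which makes nitric oxide, was at 283 against 92.6 CPM, the secreted neuronal protein Vgf at 69.5 against 22.3 CPM and Sez6 at 74.6 against 14.8 CPM. The muscarinic receptor Chrm2 was at 15.2 against 157 CPM, the integrin Itga2 at 26.2 against 173 CPM, the axon guidance gene Ntng1 at 28.2 against 179 CPM and the kappa opioid receptor Oprk1 at 4.28 against 24.5 CPM. Shisa6 (106 against 80.0 CPM), Piezo1 (66.3 against 57.7) and Gpr65 (125 against 148) were close in both, so these high genes did not come from the Ret cluster alone. The 108 chosen nuclei of the Cartpt cluster lay between, with Ret at 697 ± 253 CPM and Ptafr at 59.2 ± 26.8 CPM, where the 583 others of that cluster had 330.1 and 27.5 CPM. In the Itgae cluster the 3309 nuclei without both transcripts had Ret at 429 ± 46.1 CPM and Ptafr at 28 ± 4.57 CPM, below the chosen ones there. Chosen nuclei outside neuron-like clusters had Ret at 285 ± 201 CPM, from 0 to 753 over the pools, so few nuclei stand behind each of these values. F2r was at 842 ± 99.8 CPM in the Ret cluster's chosen nuclei, 591 ± 148 CPM in the Cartpt cluster's and 488 ± 129 CPM in the Itgae cluster's. Inside the Ret cluster, the chosen nuclei and the 437 without both transcripts had Ret at 1443 against 1239 CPM and Ptafr at 86.0 against 73.1 CPM. Shisa6 at 106 against 24.6 CPM, Gpr65 at 125 against 67.7 CPM and Piezo1 at 66.3 against 35.8 CPM lay further apart there. In the Itgae cluster Shisa6 stood at 80.0 CPM in the chosen nuclei and 24.9 CPM in the 3309 others, but Gpr65 at 148 against 149.6 CPM and Piezo1 at 57.7 against 60.9 CPM differed by less than the spread between pools.

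By side, the chosen nuclei were a larger share of nuclei in left pools, a difference that did not hold after adjustment or at equal depth. Their share ran from 3.34 over a median of 4.70 to 5.85% in the 6 left pools and from 2.37 over 3.29 to 4.53% in the 6 right pools, so the groups overlapped. The means were 4.68 ± 0.982% and 3.36 ± 0.704% (SD, 6 pools a side), a difference of -1.32 points right minus left with p = 0.0300 by a two-sided exact permutation of side within labelled sex, or 0.120 adjusted over 12 shares. As a share of neuron-like nuclei it was 5.69 against 4.29% (exact permutation p = 0.0450). Depth moved with side, since the median UMI count per nucleus averaged 3028 in left and 2583 in right pools (exact permutation p = 0.05), and in nuclei thinned to 1500 UMIs the share was 1.54 ± 0.417 against 1.27 ± 0.267% (p = 0.215). Without ML3, at 2.36% the highest left pool, the thinned means were 1.37 and 1.27%, a difference of -0.100 points (exact permutation p = 0.465). Without ML1 and FL1 the difference was -1.10 points (exact permutation p = 0.120), and leaving out any of ML3, MR1, MR2, MR3, FL1, FL3 or FR2 brought p to between 0.05 and 0.0600. Depth's part in the difference was not tested beyond this thinning.

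The Ret cluster, formed without the rule genes, had 4.44 ± 0.977% of neuron-like nuclei in left and 2.97 ± 0.820% in right pools, with overlapping ranges of 3.2 to 5.77 and 2.12 to 4.09% (exact permutation p = 0.0300, 0.180 adjusted over 6 shares). The chosen nuclei in the Itgae cluster were 1.78 against 1.23% of nuclei (exact permutation p = 0.0100, 0.120 adjusted), and those in the Ret cluster 1.84 against 1.32% (p = 0.110). Of the chosen nuclei, 38.7% lay in the Ret cluster on the left and 38.9% on the right (exact permutation p = 0.945) and 38.5 against 36.8% in the Itgae cluster (p = 0.635). Those outside neuron-like clusters were 2.70 against 4.98% (exact permutation p = 0.0300, 0.150 adjusted over 10 shares).

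**Figure D4:**
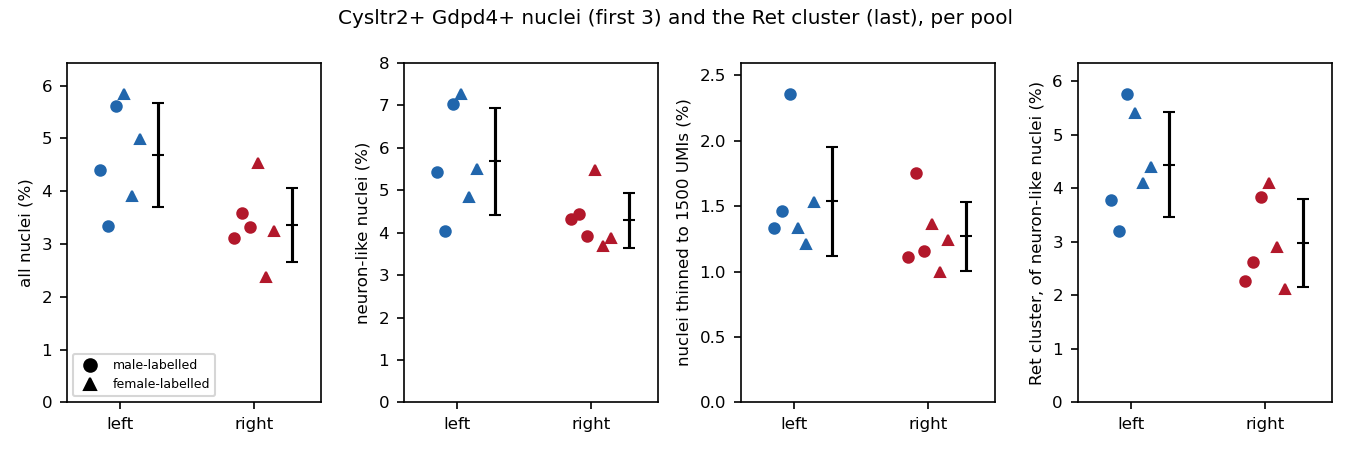
Shares per pool by side, with mean ± SD: Cysltr2+ Gdpd4+ nuclei among all nuclei, among neuron-like nuclei and among nuclei thinned to 1500 UMIs, and the Ret cluster among neuron-like nuclei. Left pools averaged 4.68% and right pools 3.36% of all nuclei, and 1.54 and 1.27% after thinning.

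Gene levels in the chosen nuclei differed by side for a single gene. Kcnq3, whose channel limits repetitive firing, was higher on the right, in CPM scaled to the normalised library size, as are all values by side and sex below. The left pools had 241 in ML1, 263 in ML2, 259 in ML3, 270 in FL1, 267 in FL2 and 315 in FL3. The right pools had 410 in MR1, 363 in MR2, 399 in MR3, 321 in FR1, 377 in FR2 and 409 in FR3. Every right pool was above every left pool, though FR1 and FL3 lay close together. The means were 269 ± 24.8 and 380 ± 34.3, a log2 change of 0.49 ± 0.08 (SE, edgeR quasi-likelihood test, Benjamini-Hochberg adjusted p = 0.00681). It was the 1 gene called among 9174 tested (0.0109%), where 440 (4.80%) had an unadjusted p under 0.05. DESeq2 and limma-voom also called 1 gene each. Without ML1 the adjusted p from edgeR was 0.0579, and without ML1 and FL1 it was 0.0968. Leaving out the 5% of nuclei with the most UMIs gave 0.875, at a log2 change of 0.55. Over all 23 alternatives the adjusted p ran from 2.93e-07 to 1.00.

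Where Kcnq3 differed within the chosen nuclei was uneven. In those of the Itgae cluster it stood at 225 on the left and 366 on the right, a log2 change of 0.81 (edgeR adjusted p = 0.0356). In those of the Ret cluster it stood at 195 and 205, a change of 0.11 with an edgeR adjusted p of 1.000, and whether these 2 changes differ was not tested. With the 56 nuclei outside neuron-like clusters removed, the change over the chosen nuclei was 0.53 (edgeR adjusted p = 0.000505). In the other neuron-like nuclei Kcnq3 was at 1067 and 1289, a change of 0.27 (edgeR adjusted p = 0.450). The change was larger in the chosen nuclei by 0.21 ± 0.08 (SE), which did not pass (edgeR adjusted p = 0.953), so it was not shown to be particular to them.

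The next 4 genes by p did not pass. They were ENSRNOG00000063253 (87.5 left, 126 right), the netrin receptor Unc5d (169 and 116), the nicotinic receptor subunit Chrna3 (12.2 and 33.0) and Shisa9, an AMPA receptor subunit partner related to Shisa6 (47.0 and 26.8), each with an edgeR adjusted p of 0.132. Ret stood at 997 ± 78.0 on the left and 950 ± 87.8 on the right, Ptafr at 61.9 ± 5.14 and 64.7 ± 12.3 and F2r at 646 ± 69.5 and 645 ± 66.1, with ranges that overlapped and edgeR adjusted p values of 0.997, 1.000 and 1.000. None of the 7 lipid mediator receptors tested had an unadjusted p under 0.05, nor did any of the 6 leukotriene and platelet-activating factor enzymes or the 5 other inflammatory receptors. Beside the 4.80% of all genes with such a p, 3 of 19 action potential channels had one, among them Kcnq3, and so had 6 of 18 markers of other vagal neuron types, for example Cyp26b1 (68.4 and 47.5, edgeR adjusted p = 0.313) and the axon guidance gene Slit2 (52.6 and 33.0, 0.756). The lists' median changes lay between -0.12 and 0.14 on the log2 scale, where all genes had 0.

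Within the chosen nuclei of the Itgae cluster 4 of 4925 genes were called by side (0.0812%). Shisa9 ran from 57.4 to 114 in left pools and from 28.5 to 37.0 in right pools, with no overlap, at means of 87.5 ± 21.5 and 33.9 ± 3.18 (log2 change -1.36, edgeR adjusted p = 0.00879). Cyp26b1 fell from 92.5 to 38.6 (-1.18, edgeR adjusted p = 0.0356), and it was also lower on the right in the other neuron-like nuclei (-0.81, edgeR adjusted p = 0.00405). Over all chosen nuclei its change did not pass as different from theirs (edgeR adjusted p = 0.973 for the class by side term). Prkd1, a protein kinase activated below diacylglycerol, rose from 320 to 469 without overlap (0.57, edgeR adjusted p = 0.0387), and Kcnq3 was the fourth. These calls rest on few nuclei, 25 to 72 per pool, and 0 genes were called without ML1, without FL1 or without both, and of the 12 fits that left out 1 pool Shisa9 was called in 10, Kcnq3 in 5, Cyp26b1 in 3 and Prkd1 in 2. In the chosen nuclei of the Ret cluster edgeR called 0 of 6089 genes by side (0%), with 223 at an unadjusted p under 0.05.

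**Figure D5:**
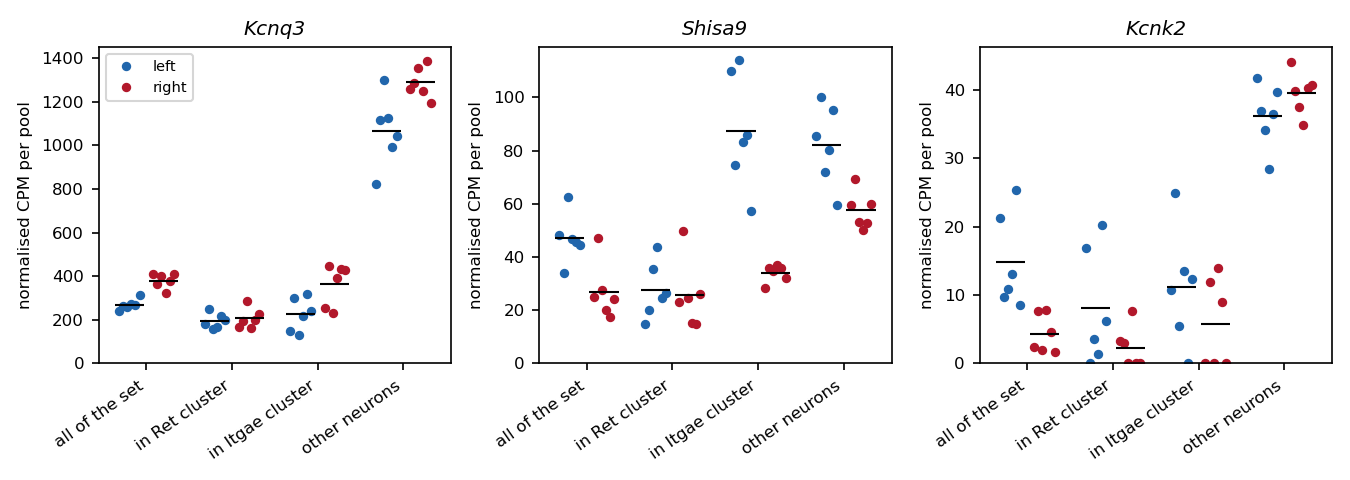
Normalised CPM of Kcnq3, Shisa9 and Kcnk2 per pool by side, in all Cysltr2+ Gdpd4+ nuclei, in those of the Ret cluster, in those of the Itgae cluster and in the other neuron-like nuclei. Kcnq3 in all chosen nuclei was 241 to 315 in left and 321 to 410 in right pools.

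A side difference unlike that of other neurons was called for 1 of 13106 genes (0.00763%). Kcnk2 encodes TREK-1, a potassium channel opened by stretch and lipids. In the chosen nuclei it ran from 8.50 over a median of 11.9 to 25.4 in left pools and from 1.66 over 3.5 to 7.80 in right pools, and in the other neuron-like nuclei it was at 36.2 and 39.6. The left and right pools of the chosen nuclei did not overlap, but Kcnk2 did not pass in the side fit of these nuclei alone (log2 change -1.70, edgeR adjusted p = 0.139). Its log2 change in the chosen nuclei was lower than that in the other neurons by 1.87 ± 0.34 (SE, edgeR adjusted p = 0.0197). The value rests on 88 UMIs in left and 24 in right pools, Kcnk2 leads 2 other neuron clusters, and the part of stray or mixed nuclei was not tested. DESeq2 called 0 genes (350 at an unadjusted p under 0.05, Kcnk2 at an adjusted p of 0.300), and edgeR no longer called it without ML1, MR1, MR3, FR2 or FR3, without ML1 and FL1, or without the 5% of nuclei with the most UMIs, over adjusted p values of 0.0530 to 0.530. The next were Asic2, whose change differed by -0.44, and the protease gene Adamts16, by 1.39, each at an edgeR adjusted p of 0.101.

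By labelled sex the share of chosen nuclei was 3.90 ± 0.954% for male and 4.15 ± 1.25% for female labels (exact permutation p = 0.645). With ML1 and FL1 exchanged the direction turned, at 4.14 and 3.91% (p = 0.650 by exact permutation), and without both it was 3.80 and 3.81%. In the makeup of the chosen nuclei the largest difference by labelled sex lay in the Cartpt cluster, and it did not pass after adjustment. The Cartpt cluster held from 7.89 over a median of 10.1 to 12.8% of the chosen nuclei under the male label and from 3.82 over 5.56 to 7.27% under the female label, without overlap. The means were 10.2 ± 1.82 and 5.45 ± 1.22% (exact permutation p = 0.00500, the smallest possible, and 0.05 adjusted over 10 shares, which is at and not under the threshold). Pools gave 3 to 17 such nuclei, so single counts weigh heavily. Over 14 alternatives, among them ML1 and FL1 left out or exchanged, p ran from 0.00500 to 0.0167. As a share of neuron-like nuclei the Cartpt cluster itself stood at 2.76 and 2.17% (exact permutation p = 0.145). Of the Cartpt cluster's nuclei, 18.7 ± 3.91% were chosen ones under the male label and 14.1 ± 5.61% under the female label, with overlap (exact permutation p = 0.100). Female-labelled pools were deeper, with median UMI counts per nucleus averaging 3122 against 2489 (exact permutation p = 0.0150).

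Over all chosen nuclei edgeR called 0 of 9174 genes by labelled sex (0%), with 652 (7.11%) at an unadjusted p under 0.05, and DESeq2 and limma-voom called 0 (366 and 665 at an unadjusted p under 0.05). The smallest p values belonged to Galnt18, an enzyme that starts mucin-type O-glycans (226 ± 47.5 male-labelled, 157 ± 22.2 female-labelled), the ATP synthase subunit Atp5f1d (13.4 and 28.9), ENSRNOG00000047374 (1088 and 1437), Piezo1 (65.8 and 44.0) and the surface protein Thy1 (372 and 485). Each had an edgeR adjusted p of 0.310. With ML1 and FL1 exchanged 12 genes were called, among them the Y-linked Kdm5d, Ddx3 and Eif2s3y, and without ML1 and FL1 also 12. No list had more than 4 genes at an unadjusted p under 0.05. That was the count for sensory transduction channels, of 18 tested, beside 7.11% of all genes, and none of these channels was called.

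In the chosen nuclei of the Ret cluster 12 of 6089 genes were called by labelled sex (0.197%). Galnt18 ran from 218 to 418 under the male label and 146 to 231 under the female label (log2 change -0.66, edgeR adjusted p = 0.0209), and Col6a5 from 2988 to 5379 and 2477 to 3540 (-0.49, edgeR adjusted p = 0.0209), both with overlap. The synaptic protein gene Clstn2 was also lower in female-labelled pools, at 577 and 387. Iscu, a scaffold for iron-sulfur clusters (19.1 and 47.9), the neuronal sulfotransferase Sult4a1 (84.2 and 142) and Sec62, of protein transport into the endoplasmic reticulum (145 and 216), were higher without overlap, as means of 6 pools each. Uchl1 (404 and 556) and Thy1 (458 and 645) were higher too, and ENSRNOG00000047374, Tmem233, Crip2 and Tenm3 completed the 12. The calls moved with single pools: 0 without ML3, MR2 or FL2, and 78 without MR1. With ML1 and FL1 left out 28 were called, 11 of them among the 12, and with their labels exchanged 11 were called and 2 were shared, Galnt18 and Clstn2. In the chosen nuclei of the Itgae cluster edgeR called 0 of 4925 genes by labelled sex (0%), with 303 at an unadjusted p under 0.05.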

How the data were processed

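Nuclear RNA of nodose ganglia was profiled with Evercode version 2 kits in 8 sublibraries that each held nuclei of all 12 pools. The deposited matrix holds raw UMI counts per nucleus and gene, 139965360 over 30560 genes, with no normalisation found on checking it against the deposited nucleus table. The genome build mRatBN7.2, R 4.3.2 and Seurat 4.1.3 are named in the submitters' processing notes. The aligner is not given in the sources used here.

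Pool, side and sex came from the nucleus table's pool names, per the labels' protocols. The rule was at least 1 UMI of Cysltr2 and of Gdpd4. The members and the gene lists were chosen with earlier results of these data known. Nuclei with under 300 genes or over 5% mitochondrial UMIs were removed (1 nucleus, none of the chosen). Clustering used 3000 variable genes without Cysltr2, Gdpd4, mitochondrial or Y-linked genes, 30 principal components, 20 neighbours and Leiden resolution 1 (scanpy 1.11.5, leidenalg 0.10.2, seed 1). Of 29 clusters 5 were set aside first, each with at least 3 markers of a glial, vascular or muscle list at least 2-fold above the other nuclei. The other 24 had at least 3 neuron markers 1.2-fold above the set-aside nuclei and were called neuron-like, a limit set after the clusters were seen. Neuron markers were not scored in the set-aside clusters.

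UMI sums per pool went into edgeR 4.0.16 (quasi-likelihood test, TMM, filterByExpr, side and labelled sex additive, pool as block for the class by side term) under R 4.3.3, with Benjamini-Hochberg adjustment at 0.05. DESeq2 1.42.0 and limma 3.58.1 were alternatives, as were no count filter, each pool left out, ML1 and FL1 left out or exchanged, a replicate block, and subsets of the nuclei. Shares were tested by exact permutation of side within sex or sex within side (400 relabellings, smallest p 0.00500). P-values measure the spread between pools, which would draw on the same rats for both sides. Pools held 7140286 to 19456287 UMIs. Scripts were tested on simulated data. Named genes are the 20 highest and 10 lowest ratios among genes with at least 20 CPM, the markers of the set, list members where a role is described, and genes called by side, sex or class by side, at least the 5 (or 3) with the smallest p. A few genes that this rule names are not reported here.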

Additional observations from a re-analysis of the deposited data

Results flagged for a closer look

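In 128 groups of 6 pools the highest or lowest pool was checked for standing apart from the other 5 by more than Dixon's 95% limit. There were 6 such values, and chance alone gives about 1 in 20 groups.

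Pool ML3 had 2.36% Cysltr2+ Gdpd4+ nuclei after thinning, where the other left pools had 1.21 to 1.53%. Ptafr in the chosen nuclei of MR3 stood at 78.9 CPM and at 56.8 to 63.7 CPM in the other male-labelled pools. Skeletal-muscle genes in the chosen nuclei of FR2 summed to 1764 CPM, where the remaining right pools had 125 to 455 CPM and the remaining female-labelled ones 125 to 329 CPM. Pool MR2 stood apart among right pools for Shisa9, at 47.2 normalised CPM against 17.4 to 27.4, and for Thy1, at 309 against 438 to 486. Kcnk2 was picked out for another reason: its log2 change from left to right in the chosen nuclei was lower by 1.87 than in the other neuron-like nuclei (a difference of -1.87, edgeR adjusted p = 0.0197).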

How the results depend on the processing

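The share of chosen nuclei by labelled sex (0.250 points, female minus male) turned direction to -0.235 with ML1 and FL1 exchanged and lay between -0.0910 and 0.606 with 1 pool left out, turning without FL1. It passed no test under any alternative run, and no other result turned direction. These settings and those of the thinned share were chosen after seeing the data. The side difference in the share of chosen nuclei (-1.32 points, right minus left) was -0.265 after thinning (exact permutation p = 0.215), -0.512 for those in the Ret cluster (p = 0.110), -1.10 without ML1 and FL1 (p = 0.120) and -1.59 to -1.09 with 1 pool left out (p = 0.0150 to 0.0600). Genes called by side in the chosen nuclei, 1 in the main result, were 36 without a count filter, 2 in neuron-like clusters only, 4 in the Itgae cluster, and 0 without ML1 and FL1, without the 5% of nuclei with the most UMIs, in the Ret cluster's chosen nuclei or in all nuclei of the Ret cluster. They were 0 to 3 with 1 pool left out. Genes called by labelled sex, 0 in the main result, were 64 without a filter, 12 without ML1 and FL1, 12 with those exchanged, 15 in neuron-like clusters only, 1 without the 5% of nuclei with the most UMIs, 12 in the Ret cluster's chosen nuclei, 6 in all of the Ret cluster and 0 to 15 with 1 pool left out. The class by side count, 1 in the main result, was 0 with DESeq2, 11 without a filter, 0 without ML1 and FL1, 0 without the 5% of nuclei with the most UMIs and 0 to 4 with 1 pool left out. Genes at least 2-fold higher than in other neurons were 60, and 99 with at least 2 UMIs of each rule gene. Those at least 2-fold lower were 241, and 396 against all other nuclei. The cause of these shifts was not tested.

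The labels do not say whether same-numbered left and right pools hold the same rats. The correlations of their deviations over 3258 genes were 0.152, 0.106 and 0.038 in male-labelled and -0.085, -0.151 and 0.094 in female-labelled pools. Of 6 left pools 4 correlated best with the right pool of their own number, 3 of 3 male-labelled and 1 of 3 female-labelled, which is a hint from the data and not the design. With the replicate block the share difference was -1.32 points (exact permutation p = 0.0625), and 2 genes were called by side, Kcnq3 and Unc5d.

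Depth limits the reading of rare transcripts: with 11486800 UMIs in the chosen nuclei a count of 0 allows up to 0.261 CPM, and calls within 1 cluster rest on fewer UMIs still.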

Other observations

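Sst, the gene of the inhibitory peptide somatostatin, fell below the filter on level and was singled out after its values were seen. At least 1 Sst UMI was found in 45 of the 1415 Cysltr2+ Gdpd4+ nuclei (3.18%, exact 95% interval 2.33 to 4.23), and these were 45 of the 79 nuclei with such a UMI in the whole matrix. Nuclei with Cysltr2 alone had 8 of 2079 (0.385%), those with Gdpd4 alone 4 of 2470 (0.162%) and those with neither 22 of 30777 (0.0715%). The set-aside nuclei outside the chosen ones, which were not free of neuronal RNA, had 18 of 8674 (0.208%) at a median of 1787 UMIs, against a median of 6648 in the chosen nuclei. Within the Ret cluster 28 of 543 chosen nuclei (5.16%, median 8110 UMIs) and 1 of 437 others (0.229%, median 5522 UMIs) had a Sst UMI, whereas 1 of 538 chosen nuclei of the Itgae cluster did. The pooled level was 4.81 ± 3.24 CPM in the chosen nuclei and 0.190 ± 0.144 CPM in the other neuron-like nuclei over 12 pools.

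The chosen nuclei with a Sst UMI numbered 0 in ML2, 1 each in ML3 and MR1, 2 in MR2, 3 each in MR3 and FL1, 4 each in FL2 and FR2, 6 in ML1, and 7 each in FL3, FR1 and FR3. As a share per pool this was 1.74 ± 1.55% under the male label and 4.86 ± 1.99% under the female label (two-sided exact permutation p = 0.0200, overlapping). With the labels of ML1 and FL1 exchanged it was 1.36 against 5.24%, without overlap (0 to 3.37 and 3.70 to 7.07%, exact permutation p = 0.00500, the smallest possible). Without those 2 pools it was 1.30 against 5.50% (exact permutation p = 0.0167, 5 pools each). By side it was 3.12 against 3.48% (exact permutation p = 0.745). The comparison was made after the counts were seen, and the median UMI count of the chosen nuclei averaged 7956 in female-labelled and 6015 in male-labelled pools (exact permutation p = 0.0550), whose part in the difference was not tested.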
